A study of Mus musculus and Homo sapiens with 34 samples.

Results

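Expression of 10 genes that carry glucose into the cell, through glycolysis to lactate and out again was followed in colorectal carcinoma spheroids grown with or without a tissue matrix. The genes were chosen by symbol: SLC2A1, HK1, HK2, PFKP, ALDOA, PGK1, ENO2, PKM, LDHA and SLC16A3. They were matched, ignoring case, to the names in the count tables, which gave 10 of 58870 human and 11 of 55450 mouse identifiers. The additional mouse identifier was a low second Aldoa entry and was not used. MatriSpheres, in which cells were cultured with SIS ECM (decellularised small intestinal submucosa), were compared with spheroids of cells alone. CT26 and MC38 are mouse colon carcinoma lines and HT29 is a human line. There were 6 SIS ECM and 6 cells-alone libraries for CT26, 5 and 5 for MC38, and 6 and 6 for HT29, all collected after 7 days of culture with 10 spheroids pooled per tube. No allele, drug or sorting step is named for any group, and each line stands for a single tumour grown in medium with serum.

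Glycolysis splits glucose into pyruvate and yields ATP without oxygen, and many tumour cells use it even when oxygen is present. GLUT1 (SLC2A1) brings glucose in, hexokinases (HK1, HK2) trap it as glucose 6-phosphate, and phosphofructokinase (PFKP) commits it to breakdown. Aldolase (ALDOA), phosphoglycerate kinase (PGK1), enolase (ENO2) and pyruvate kinase (PKM) carry it to pyruvate, lactate dehydrogenase A (LDHA) reduces pyruvate to lactate, and MCT4 (SLC16A3) exports lactate. Several of these genes are known targets of the hypoxia-inducible factors HIF-1 and HIF-2.

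Library totals, in units of 1e6 counts, were 15.8 to 24.2 in mouse and 25.5 to 37.0 in human. Libraries 1 to 3 and 4 to 6 of the mouse lines stood apart: with culture held in the fit, 52.7% of genes in CT26 and 40.8% in MC38 differed between these number ranges, so values are also given within each range. The labels give no meaning to the numbers. CT26 SIS ECM libraries 1 and 2 were above all other CT26 libraries for 9 of the 10 genes, all but Eno2, so the CT26 results are given with and without them. In HT29 all 8 epithelial markers were detected, with a summed level of 8140 to 9910 CPM (counts per 1e6, scaled by TMM factors) in SIS ECM and 8790 to 10100 CPM in cells alone. In the mouse lines Epcam was at 0 in every library and Cdh1 was at 0 in CT26, while 3 of the 8 epithelial markers passed the count filter in CT26 and 1 in MC38. The list summed to 0.264 to 1.38 CPM in SIS ECM and 0.588 to 1.02 CPM in cells alone in MC38. Endothelial markers summed to at most 5.52 CPM in any library, and fibroblast markers to 439 to 678 CPM in SIS ECM and 502 to 764 CPM in cells alone in CT26, and to at most 1.62 CPM in HT29. Most of the CT26 fibroblast sum was Col1a2 (mean 444 CPM in SIS ECM, 543 CPM in cells alone). Col1a1, Col3a1, Pdgfra, Pdgfrb and Dcn had higher means with SIS ECM in CT26, and Lum and Fap, near 0, had lower ones. In bulk RNA, fewer cells of a type and less RNA per cell cannot be told apart.

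The 10 genes differed in level by orders of magnitude. In mouse they are given per kilobase of exon, where the length joins all annotated exons of a gene. In CT26, Pgk1 was highest at 3003 ± 272 CPM per kb in SIS ECM and 2342 ± 192 CPM per kb in cells alone (SD, n = 6 each). Ldha followed with 840 ± 74.2 CPM per kb in SIS ECM and 758 ± 73.7 CPM per kb in cells alone. Aldoa and Pkm came next and overlapped within their spread (423 ± 205 and 337 ± 125 CPM per kb in SIS ECM). Eno2 had 56.6 ± 6.65 CPM per kb in SIS ECM and 34.9 ± 9.31 CPM per kb in cells alone. Slc2a1 had 32.0 ± 11.1 CPM per kb in SIS ECM and 24.9 ± 2.77 CPM per kb in cells alone. On this scale Hk2 was above Hk1 (15.2 ± 1.06 against 6.60 ± 0.865 CPM per kb in cells alone), and Slc16a3 and Pfkp were lowest, at 5.55 ± 0.778 and 4.26 ± 0.238 CPM per kb in cells alone. The joined exons were 13.4 kb for Pfkp, 8.53 kb for Hk1, 5.97 kb for Hk2 and 5.32 kb for Slc16a3, and the order depends on them. Not divided by length, means in cells alone were 90.5 CPM for Hk2, 56.3 CPM for Hk1, 57.1 CPM for Pfkp and 29.5 CPM for Slc16a3.

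Pgk1 was also the highest of the 10 in MC38, and Eno2 the lowest. Pgk1 had 828 ± 97.9 CPM per kb in SIS ECM and 1016 ± 86.1 CPM per kb in cells alone (SD, n = 5 each). Pkm and Ldha could not be ordered in cells alone (431 ± 26.8 and 428 ± 26.4 CPM per kb). Slc16a3 reached 20.3 ± 4.69 CPM per kb in SIS ECM and 30.5 ± 2.47 CPM per kb in cells alone, close to Slc2a1 at 19.8 ± 6.74 CPM per kb in SIS ECM and 37.3 ± 4.05 CPM per kb in cells alone. Eno2, known as the neuronal enolase, was at 0.310 ± 0.121 CPM per kb in SIS ECM and 0.243 ± 0.0491 CPM per kb in cells alone in MC38. Among cells-alone libraries, Hk1, Pfkp and Slc16a3 were higher in every MC38 library than in every CT26 library, against 35.4% of all genes higher without overlap. Hk2, Pgk1, Eno2 and Ldha were lower in every MC38 library, against 30.5% of all genes.

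The other common isoform of a step was nearly absent in some lines. Slc2a3 (GLUT3) had 0 to 2 counts and Ldhb, the lactate dehydrogenase chain that predominates in heart, 0 to 1 count in any CT26 library. In MC38, Slc2a3 had 1.14 ± 0.669 CPM in SIS ECM and 1.32 ± 0.239 CPM in cells alone, and Ldhb 39.1 ± 2.80 CPM in SIS ECM and 39.2 ± 4.06 CPM in cells alone (SD, n = 5 each). In HT29, SLC2A3 had 0 to 9 counts in any library and LDHB had 622 ± 65.9 CPM in SIS ECM and 642 ± 45.0 CPM in cells alone (SD, n = 6 each). SLC16A1 (MCT1), which carries lactate both ways, was present in all 3 lines.

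Promoter sequence is shown for 6 mouse genes that moved differently in the comparisons below, since hypoxia-inducible factors bind the core letters ACGTG or GCGTG. The sequences are RefSeq windows of 300 bases on GRCm38.p6, from 250 before to 50 after the annotated start, in the direction of the gene, with both core motifs on either strand in capitals. An ACGTG core preceded by C reads CACGTG, which is also the E-box bound by MYC and related factors.
Slc2a1: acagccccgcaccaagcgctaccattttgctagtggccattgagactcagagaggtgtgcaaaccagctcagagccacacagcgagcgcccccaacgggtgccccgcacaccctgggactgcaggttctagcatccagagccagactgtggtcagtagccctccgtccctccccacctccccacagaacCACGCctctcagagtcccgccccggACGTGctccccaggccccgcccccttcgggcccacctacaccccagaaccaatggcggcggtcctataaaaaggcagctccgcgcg
Hk2: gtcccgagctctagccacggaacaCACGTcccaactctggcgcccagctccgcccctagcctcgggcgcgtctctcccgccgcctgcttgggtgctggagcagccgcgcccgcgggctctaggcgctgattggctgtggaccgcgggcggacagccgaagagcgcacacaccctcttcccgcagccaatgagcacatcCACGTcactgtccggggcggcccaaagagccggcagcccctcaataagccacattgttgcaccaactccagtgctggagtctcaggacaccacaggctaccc
Slc16a3: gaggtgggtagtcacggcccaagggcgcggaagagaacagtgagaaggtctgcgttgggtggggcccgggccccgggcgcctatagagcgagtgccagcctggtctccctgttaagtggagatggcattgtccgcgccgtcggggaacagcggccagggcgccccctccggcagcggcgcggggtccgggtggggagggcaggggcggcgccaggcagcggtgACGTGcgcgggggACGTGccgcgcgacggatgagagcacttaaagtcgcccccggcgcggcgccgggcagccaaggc
Pgk1: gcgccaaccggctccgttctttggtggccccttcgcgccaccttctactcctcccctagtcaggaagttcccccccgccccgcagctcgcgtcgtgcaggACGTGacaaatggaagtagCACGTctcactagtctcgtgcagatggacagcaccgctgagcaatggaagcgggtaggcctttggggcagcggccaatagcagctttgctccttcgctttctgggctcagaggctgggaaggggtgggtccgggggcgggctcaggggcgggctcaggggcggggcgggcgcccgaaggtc
Ldha: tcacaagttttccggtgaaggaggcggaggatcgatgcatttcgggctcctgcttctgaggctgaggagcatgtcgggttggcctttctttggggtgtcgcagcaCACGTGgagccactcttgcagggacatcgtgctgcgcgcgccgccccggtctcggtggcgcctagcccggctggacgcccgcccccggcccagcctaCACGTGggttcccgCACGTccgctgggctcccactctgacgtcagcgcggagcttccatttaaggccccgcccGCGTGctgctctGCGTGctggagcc
Eno2: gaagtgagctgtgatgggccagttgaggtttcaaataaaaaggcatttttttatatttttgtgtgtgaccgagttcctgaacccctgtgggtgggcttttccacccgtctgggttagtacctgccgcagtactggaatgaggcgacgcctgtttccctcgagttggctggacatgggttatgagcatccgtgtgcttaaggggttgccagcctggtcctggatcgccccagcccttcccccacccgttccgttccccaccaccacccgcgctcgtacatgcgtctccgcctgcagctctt
The Slc2a1 window lies at chr4:119108495-119108794 on the plus strand and the Hk2 window at chr6:82774405-82774704 on the minus strand, and each held 2 cores. The Slc16a3 window at chr11:120948817-120949116 (plus) and the Pgk1 window at chrX:106186850-106187149 (plus) also held 2 cores each. The Ldha window shown, at chr7:46845554-46845853 (plus), held 7 matches counted over both strands, of which 4 come from 2 CACGTG sites that match on each strand. The Eno2 window at chr6:124769624-124769923 (minus) held none. All 10 genes had at least 1 window, 15 in all, and 11 of the 15 held a core (2 Aldoa windows overlap), while 43.8% of the 32851 mouse windows in the RefSeq table did. These are letter matches in short windows and say nothing of whether a factor binds.

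Across the 3 lines the 10 genes took different directions with SIS ECM. Genes are said to have risen or fallen where the adjusted p of edgeR's quasi-likelihood test, over all genes tested in that fit, was below 0.05. In MC38, 6 of the 10 fell and none rose, with a median log2 fold change of -0.41 over the 10 against 0.01 over all genes tested. In CT26, 2 rose and none fell, with all 10 values above 0 and a median of 0.22 against 0.01. In HT29, 5 rose and none fell, with a median of 0.18 against 0.00. The shares of all genes that moved the same way were 5.36% (lower, MC38), 6.15% (higher, CT26) and 7.75% (higher, HT29).

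**Figure D1:**
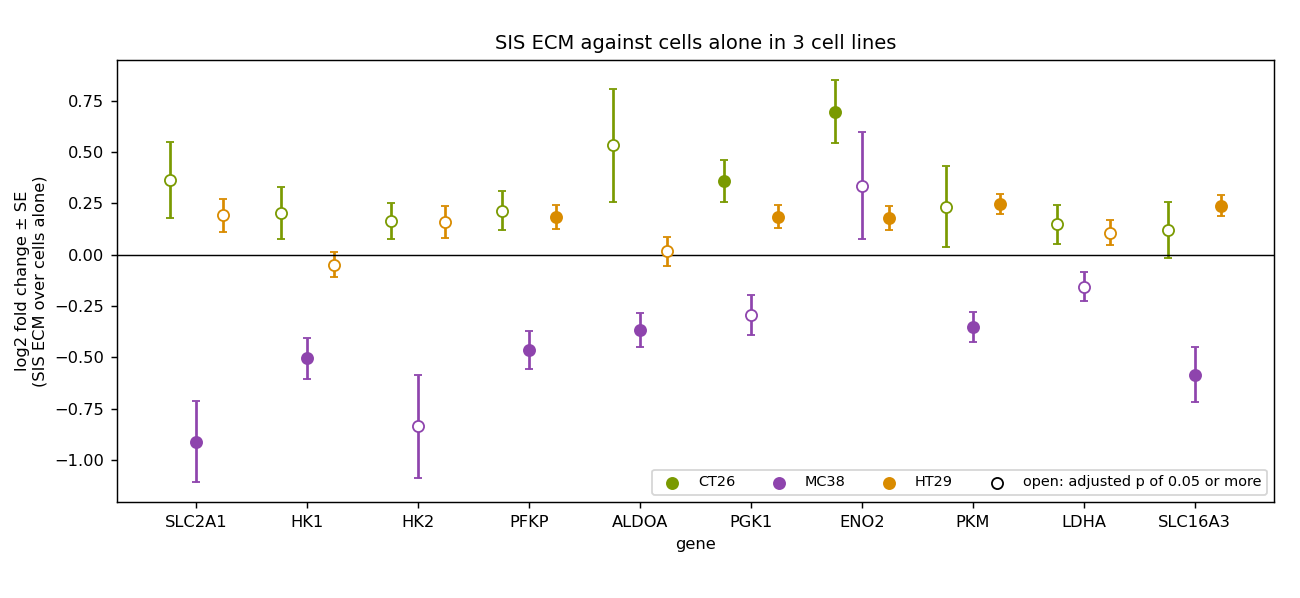
Log2 fold change of SIS ECM over cells alone (y axis, bars: SE) for each of the 10 genes (x axis) in CT26, MC38 and HT29; filled points have an adjusted p below 0.05. In MC38 every gene but ENO2 lies below 0, in CT26 every gene lies above 0, and in HT29 every gene but HK1 lies above 0.

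**Figure D2:**
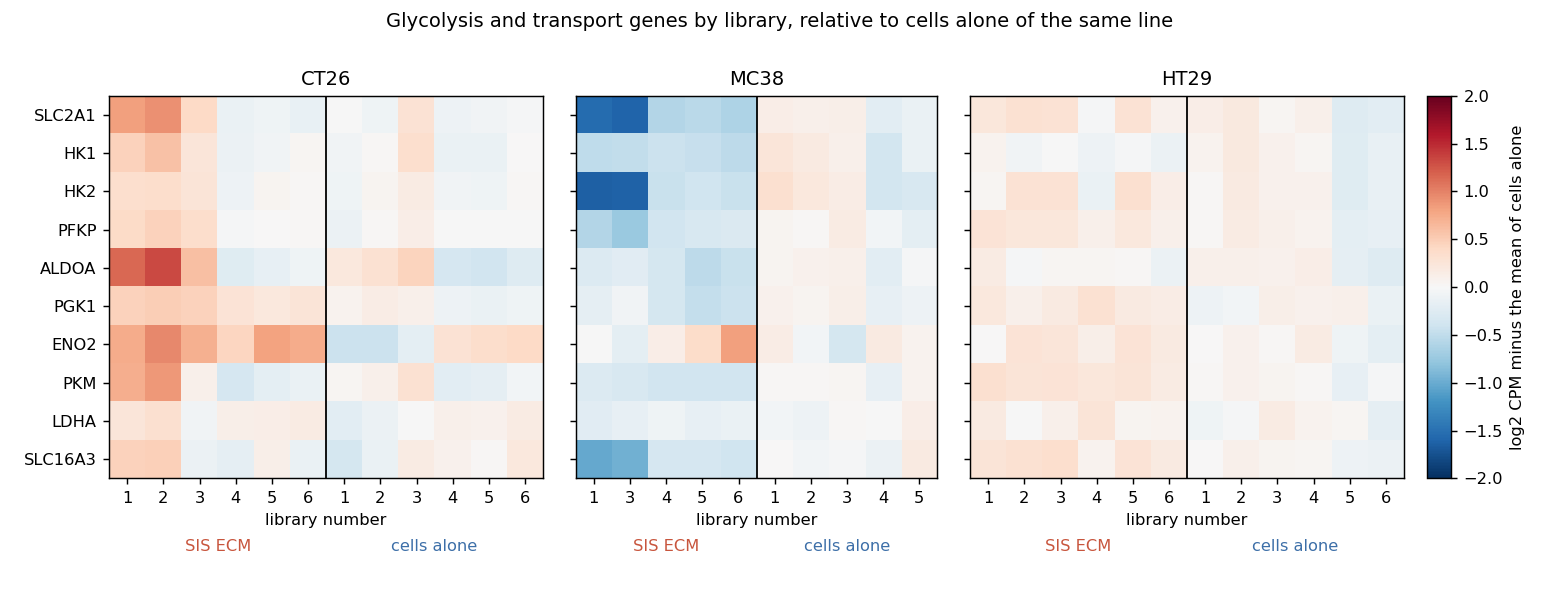
Log2 CPM of each gene (rows) in each library (columns, by library number) minus the mean of the cells-alone libraries of that line; red is higher and blue lower, on a scale of -2 to 2. The CT26 SIS ECM libraries 1 and 2 are the reddest columns and the MC38 SIS ECM libraries 1 and 3 the bluest, at Slc2a1, Hk2 and Slc16a3.

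In MC38, 6 of the 10 genes fell with SIS ECM, and among them the glucose transporter and the lactate exporter had the largest log2 fold changes. The glucose transporter Slc2a1 (ENSMUSG00000028645.11, chr4:119108711-119137983, mm10) had 44.6, 42.7, 86.1, 89.5 and 84.4 CPM in SIS ECM libraries 1, 3, 4, 5 and 6, against 143, 139, 140, 112 and 119 CPM in cells-alone libraries 1 to 5. Every SIS ECM library was below every cells-alone library, and SIS ECM libraries 1 and 3 were the lowest. It fell by 0.91 ± 0.20 on the log2 scale (SE, adjusted p = 0.0139, edgeR). The lactate exporter Slc16a3 (chr11:120948480-120960868) had 79.3, 82.9, 128, 128 and 122 CPM in SIS ECM, against 164, 156, 159, 149 and 184 CPM in cells alone. Again the groups did not overlap and SIS ECM libraries 1 and 3 were the lowest (log2 fold change -0.59 ± 0.13, adjusted p = 0.0178, edgeR).

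Both hexokinases were lower without overlap in MC38. Hk1 (chr10:62268855-62379908), the widely expressed form, had 87.7, 88.8, 93.1, 90.8 and 87.0 CPM in SIS ECM, against 148, 142, 135, 96.7 and 114 CPM in cells alone. Its SIS ECM libraries lay close together while the cells-alone libraries 4 and 5 were below the others, and it fell by 0.50 ± 0.10 (adjusted p = 0.00912, edgeR). Hk2 (chr6:82725025-82774454), the form that rises in many tumours, had 22.4, 22.6, 51.5, 53.1 and 51.3 CPM in SIS ECM, against 88.3, 81.7, 78.2, 54.2 and 55.9 CPM in cells alone. The 2 lowest SIS ECM libraries were again 1 and 3, while libraries 4 to 6 nearly met the cells-alone libraries 4 and 5. The log2 fold change of Hk2 was -0.84 ± 0.25 with an adjusted p of 0.0548, and it passed in the fit blocked by library number (-0.95 ± 0.27, adjusted p = 0.0473, edgeR), where 5.23% of all genes fell.

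Pfkp, Aldoa and Pkm fell by smaller amounts in MC38. Pfkp (chr13:6579768-6648777) fell by 0.46 ± 0.09 on the log2 scale (adjusted p = 0.0101, edgeR), with 60.4, 53.6, 69.1, 72.3 and 73.7 CPM in SIS ECM against 93.7, 92.1, 102, 86.9 and 79.2 CPM in cells alone. Aldoa (chr7:126795234-126800751) had 834, 857, 786, 701 and 742 CPM in SIS ECM, against 1042, 1067, 1075, 874 and 992 CPM in cells alone. Aldoa fell by 0.37 ± 0.08 (adjusted p = 0.016, edgeR). Pkm (chr9:59656368-59679375) had 1773, 1725, 1649, 1651 and 1655 CPM in SIS ECM, against 2194, 2181, 2225, 1925 and 2264 CPM in cells alone, and fell by 0.35 ± 0.07 (adjusted p = 0.0116, edgeR). For all 3 enzymes the groups did not overlap. In all, 7 of the 10 genes were lower without overlap, which held for 5.26% of all genes. Within each number range 9 were lower without overlap, all but Eno2, against 23.7% of all genes in libraries 4 to 6 and 30.2% in libraries 1 to 3.

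Pgk1, Ldha and Eno2 did not pass in MC38. Pgk1 (chrX:106187100-106203699) had 2008, 2161, 1788, 1642 and 1695 CPM in SIS ECM, against 2413, 2373, 2466, 2027 and 2124 CPM in cells alone, and SIS ECM library 3 overlapped with cells-alone libraries 4 and 5 (log2 fold change -0.30 ± 0.10, adjusted p = 0.0752, edgeR). Without SIS ECM library 3 its adjusted p was 0.0444, and without cells-alone library 4 the adjusted p was 0.0384 for Pgk1 and 0.0358 for Hk2 (edgeR). Ldha (chr7:46841475-46855627) had 1202, 1261, 1333, 1259 and 1294 CPM in SIS ECM, against 1362, 1322, 1441, 1403 and 1550 CPM in cells alone (log2 fold change -0.16 ± 0.07, adjusted p = 0.18, edgeR). Only SIS ECM library 4 reached above a cells-alone library. Eno2 (chr6:124760053-124769673) had 0.918 to 2.37 CPM in SIS ECM and 0.775 to 1.35 CPM in cells alone, where no difference was detectable at this depth.

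The log2 fold change in MC38 differed between number ranges for 5 of the 10 genes. The difference between ranges, libraries 4 to 6 minus libraries 1 to 3, was 1.79 ± 0.09 for Hk2 (adjusted p = 4.62e-11), 1.27 ± 0.08 for Slc2a1 (adjusted p = 2.94e-10) and 0.57 ± 0.09 for Slc16a3 (adjusted p = 0.000409), on the log2 scale in edgeR. It was 0.53 ± 0.09 for Pfkp (adjusted p = 0.000434) and 0.45 ± 0.09 for Hk1 (adjusted p = 0.00155, edgeR). This test called 9.38% of all genes in that direction. Hk2 had a log2 fold change of -0.09 ± 0.06 within libraries 4 to 6 (adjusted p = 0.336) and of -1.89 ± 0.07 within libraries 1 to 3 (adjusted p = 1.91e-15, edgeR). Slc2a1 fell in both ranges, by 0.42 ± 0.06 in libraries 4 to 6 (adjusted p = 9.38e-05) and by 1.70 ± 0.06 in libraries 1 to 3 (adjusted p = 3.35e-16, edgeR). Slc16a3 fell by 0.41 ± 0.07 in libraries 4 to 6 and by 0.98 ± 0.05 in libraries 1 to 3 (adjusted p = 0.00107 and 1.69e-12, edgeR).

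Aldoa, Pkm and Pgk1 passed in both ranges of MC38, and no difference between ranges passed for them. Aldoa fell by 0.33 ± 0.07 in libraries 4 to 6 and by 0.34 ± 0.05 in libraries 1 to 3, Pkm by 0.35 ± 0.07 and 0.34 ± 0.05, and Pgk1 by 0.29 ± 0.07 and 0.22 ± 0.05 (adjusted p from 1.05e-05 to 0.00784, edgeR). The difference between ranges was -0.00 ± 0.08 for Aldoa, -0.01 ± 0.09 for Pkm, -0.07 ± 0.08 for Pgk1 and -0.03 ± 0.08 for Ldha, with adjusted p of 0.581 to 0.983 (edgeR). Within ranges, 7 of the 10 genes fell in libraries 4 to 6 and 9 in libraries 1 to 3, where 8.48% and 20.4% of all genes fell. With a term for the range in the fit, 9 of the 10 fell, all but Eno2, against 12.5% of all genes. Libraries 4 to 6 hold 3 SIS ECM and 2 cells-alone libraries, and libraries 1 to 3 hold 2 SIS ECM and 3 cells-alone libraries.

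**Figure D3:**
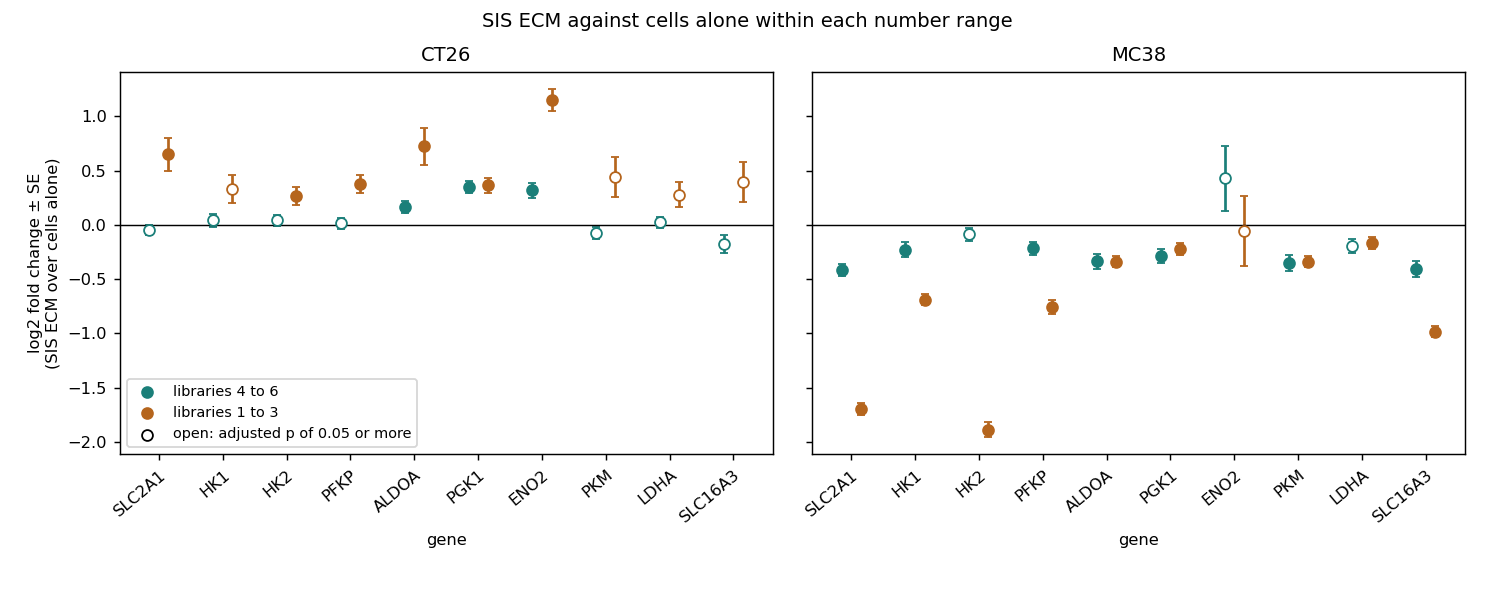
Log2 fold change of SIS ECM over cells alone (y axis, bars: SE) for each gene (x axis), fitted within libraries 4 to 6 and within libraries 1 to 3 of CT26 and MC38; filled points have an adjusted p below 0.05. In MC38 the ranges lie apart at SLC2A1, HK1, HK2, PFKP and SLC16A3 and together at ALDOA, PGK1, PKM and LDHA.

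Other measures are given by culture for MC38. The share of counts from mitochondrially encoded genes was 4.92 to 6.46% in SIS ECM and 3.42 to 7.24% in cells alone; within libraries 1 to 3 it was 4.92 to 4.94% in SIS ECM and 3.42 to 3.75% in cells alone. Genes of the fibroblast list, 6 of 8 of which passed the count filter in this line, summed to 2680 to 4240 CPM in SIS ECM and 3620 to 4560 CPM in cells alone, which overlap. Col3a1 had a mean of 1570 CPM in SIS ECM and 2430 CPM in cells alone, and Dcn 1080 and 1140 CPM. Pdgfra went the other way (482 CPM in SIS ECM, 475 CPM in cells alone). The part of these measures in the result was not tested.

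In CT26, Pgk1 and Eno2, enzymes of the later steps of glycolysis, rose with SIS ECM. Pgk1 had 7245, 7404, 7215, 6302, 6041 and 6232 CPM in SIS ECM libraries 1 to 6, against 5482, 5800, 5619, 4900, 4785 and 4943 CPM in cells-alone libraries 1 to 6. No SIS ECM library overlapped with the cells-alone libraries, and in each group libraries 4 to 6 were the lower ones. It rose by 0.36 ± 0.10 on the log2 scale (adjusted p = 0.0387, edgeR). Eno2 had 267, 311, 261, 214, 279 and 267 CPM in SIS ECM, against 119, 118, 140, 196, 204 and 211 CPM in cells alone. The groups came closest at SIS ECM library 4 and cells-alone library 6 without overlapping, and Eno2 rose by 0.70 ± 0.15 (adjusted p = 0.0113, edgeR). These 2 of the 10 genes were higher without overlap, which held for 4.12% of all genes. Within libraries 4 to 6, 3 of the 10 were higher without overlap (Aldoa, Pgk1 and Eno2, against 18.3% of all genes), and within libraries 1 to 3, 6 were (against 19%). The Eno2 call was kept whichever single library was left out, whereas Pgk1 passed only without SIS ECM library 4 or 5 and lost its call in the other 10 omissions (adjusted p of 0.0413 to 0.101 over the 12, edgeR).

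The other 8 genes had values above 0 in CT26 that did not pass, and SIS ECM libraries 1 and 2 were the highest for all 8. Aldoa had 1836, 2065, 1263, 699, 743 and 785 CPM in SIS ECM libraries 1 to 6, against 965, 1020, 1134, 659, 636 and 696 CPM in cells-alone libraries 1 to 6. SIS ECM libraries 1 and 2 were far above the rest, and libraries 4 to 6 of both groups were the lowest. The log2 fold change of Aldoa was 0.53 ± 0.28 (adjusted p = 0.258), and it passed in the fit blocked by library number (0.43 ± 0.13, adjusted p = 0.0376, edgeR). That fit called 10.6% of all genes higher and 2281 genes in all, in place of 1135. Slc2a1 had 153, 165, 115, 79.4, 82.0 and 78.6 CPM in SIS ECM, against 85.9, 81.9, 107, 80.9, 82.3 and 85.6 CPM in cells alone. Within libraries 4 to 6 the groups overlapped (log2 fold change over all libraries 0.36 ± 0.18, adjusted p = 0.243, edgeR).

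The hexokinases, Pfkp, Pkm, Ldha and Slc16a3 overlapped between the groups in CT26. Pkm had 2345, 2589, 1525, 1126, 1238 and 1293 CPM in SIS ECM, against 1464, 1521, 1752, 1232, 1257 and 1371 CPM in cells alone. Ldha had 2387 to 3112 CPM (median 2772) in SIS ECM and 2161 to 2804 CPM (median 2562) in cells alone. Hk2 had 84.5 to 116 CPM (median 101) in SIS ECM and 85.3 to 101 CPM (median 88.7) in cells alone. The log2 fold changes of the 6 genes were 0.12 to 0.23 with adjusted p of 0.172 to 0.646 (edgeR). Without SIS ECM libraries 1 and 2, an alternative chosen after seeing the data, Eno2 alone of the 10 passed (0.64 ± 0.17, adjusted p = 0.0437), as did 5.22% of all genes in that direction, and Pgk1 was 0.29 ± 0.10 (adjusted p = 0.0946, edgeR). Aldoa was then 0.03 ± 0.21 and Slc2a1 0.02 ± 0.12, and Pkm (-0.15 ± 0.12) and Slc16a3 (-0.09 ± 0.11) changed sign.

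**Figure D4:**
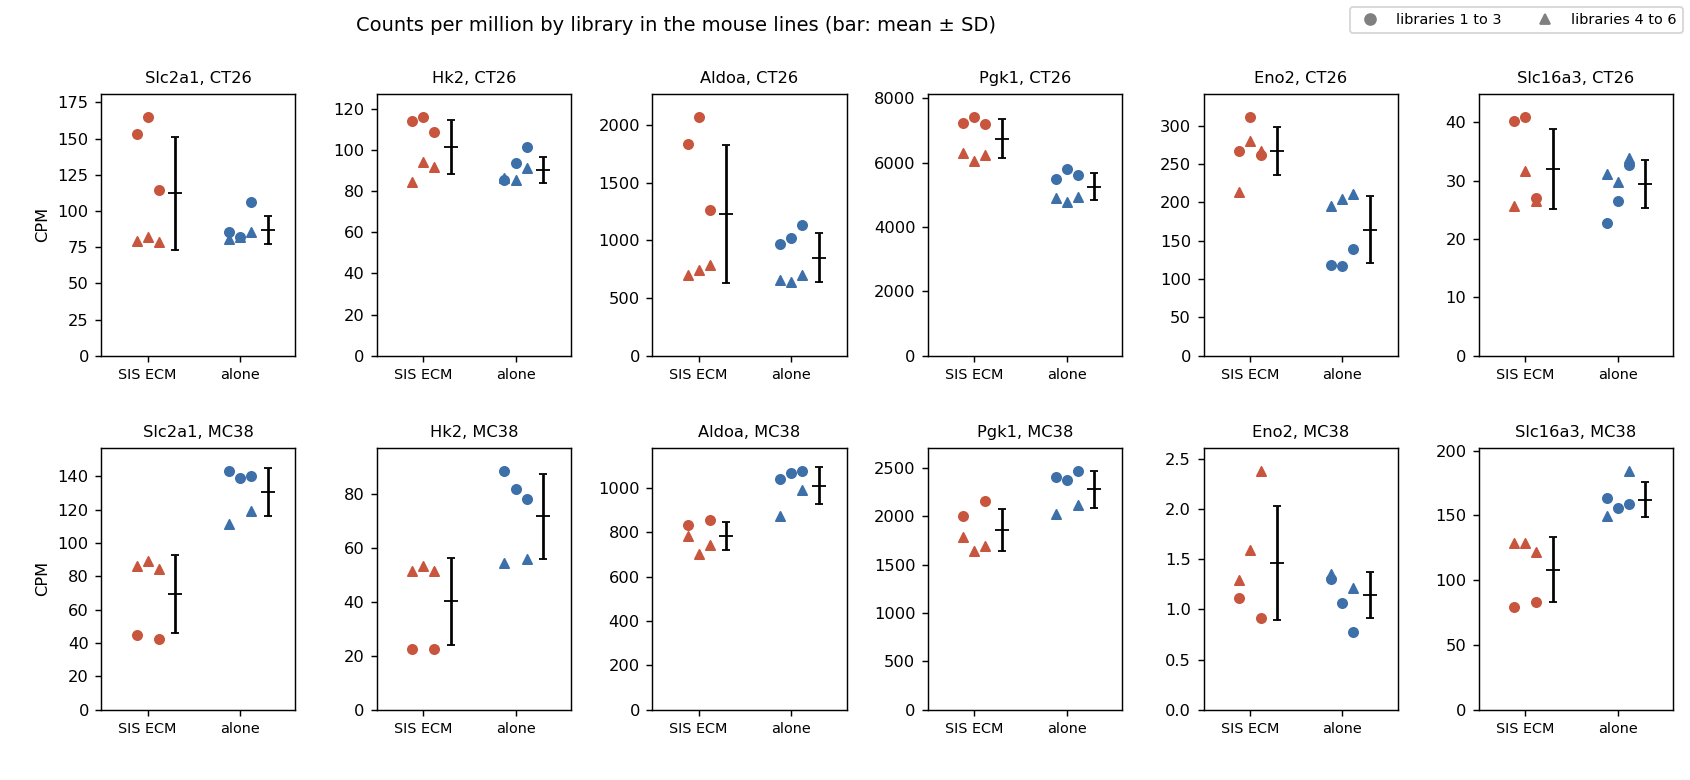
CPM (y axes, from 0) of 6 genes in each CT26 library (top) and MC38 library (bottom), SIS ECM left and cells alone right; circles are libraries 1 to 3, triangles libraries 4 to 6, and bars the mean ± SD. Aldoa in CT26 spans 699 to 2065 CPM in SIS ECM, and Slc2a1 in MC38 lies at 42.7 to 89.5 CPM in SIS ECM, below all cells-alone libraries (112 to 143 CPM).

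Pgk1 had nearly the same log2 fold change in both number ranges of CT26. It rose by 0.35 ± 0.06 in libraries 4 to 6 (adjusted p = 0.000173) and by 0.36 ± 0.07 in libraries 1 to 3 (adjusted p = 0.0107, edgeR). Aldoa rose by 0.17 ± 0.05 in libraries 4 to 6 and by 0.72 ± 0.17 in libraries 1 to 3 (adjusted p = 0.0309 and 0.0201), and Eno2 by 0.32 ± 0.07 and 1.15 ± 0.10 (adjusted p = 0.00282 and 0.000385, edgeR). Slc2a1 (0.65 ± 0.15), Pfkp (0.38 ± 0.08) and Hk2 (0.26 ± 0.08) rose within libraries 1 to 3 and were at -0.05 to 0.04 within libraries 4 to 6. In all, 3 of the 10 rose in libraries 4 to 6 and 6 in libraries 1 to 3, where 11.1% and 9.92% of all genes rose. The difference between ranges passed for Eno2 (-0.84 ± 0.14, adjusted p = 0.0328, edgeR), where 0.149% of genes passed in that direction. With single libraries left out, the Eno2 difference kept its call in 4 of 12 cases (SIS ECM library 2, 3 or 5, or library 3 of cells alone), and 8 of the 10 genes passed without SIS ECM library 3, as did 3101 genes in place of 31. It did not pass for Slc2a1 (-0.71 ± 0.16, adjusted p = 0.0727).

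Levels also differed by number range in CT26. With culture in the fit, 7 of the 10 genes were lower in libraries 4 to 6 than in libraries 1 to 3, where 26.3% of all genes were lower. The log2 differences were -0.93 ± 0.12 for Aldoa (adjusted p = 8.66e-06), -0.56 ± 0.12 for Pkm (adjusted p = 0.00108) and -0.50 ± 0.12 for Slc2a1 (adjusted p = 0.00262, edgeR). With that range term, 5 of the 10 genes rose with SIS ECM (Hk2, Pfkp, Aldoa, Pgk1 and Eno2), as did 15.2% of all genes. In MC38 the range term was -0.25 ± 0.05 for Pgk1, -0.19 ± 0.05 for Aldoa and 0.35 ± 0.09 for Slc16a3 (adjusted p = 0.00104, 0.00808 and 0.00728, edgeR), where 20.9% of all genes were lower and 19.9% higher, and the other 7 did not pass.

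The mitochondrial share in CT26 was 7.66 to 8.59% in SIS ECM libraries 4 to 6 against 7.87 to 8.29% in cells-alone libraries 4 to 6, and 3.72 to 4.23% in SIS ECM libraries 1 to 3 against 4.82 to 5.01% in cells-alone libraries 1 to 3. The 10 genes together took 1.04 to 1.73% of counts in SIS ECM and 0.944 to 1.21% in cells alone. Epithelial-list genes summed to 18.4 to 33.8 CPM in SIS ECM and 8.09 to 13.6 CPM in cells alone, with Krt18 at a mean of 14.8 CPM in SIS ECM and 6.84 CPM in cells alone and Cdh17 at 9.11 CPM in SIS ECM and 2.51 CPM in cells alone. Cdx2 went the other way (0.496 CPM in SIS ECM, 0.805 CPM in cells alone), as did Krt8 and Krt19 near 0. Vil1 was higher near 0, and Epcam and Cdh1 were at 0. Leukocyte-list genes, of which 1 of 7 passed the count filter and Cd3e was at 0, summed to 1.87 to 10.2 CPM in SIS ECM and 1.23 to 2.95 CPM in cells alone, with Cd68 at a mean of 5.73 CPM in SIS ECM and 1.92 CPM in cells alone. The next highest of them, Lyz2, was at 0.148 CPM in SIS ECM and 0.172 CPM in cells alone. Their part in the result was not tested.

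In HT29, PKM, SLC16A3, PGK1, ENO2 and PFKP rose, each by 0.18 to 0.25 on the log2 scale. PKM rose by 0.25 ± 0.05 on the log2 scale (adjusted p = 0.00287, edgeR), with 2998, 2871, 2885, 2807, 2854 and 2673 CPM in SIS ECM libraries 1 to 6 against 2443, 2557, 2484, 2431, 2140 and 2350 CPM in cells-alone libraries 1 to 6. Among the 10 genes, PKM alone was higher without overlap, which held for 3.64% of all genes. SLC16A3 had 324, 336, 342, 286, 328 and 308 CPM in SIS ECM, against 274, 292, 283, 278, 253 and 251 CPM in cells alone. Only SIS ECM library 4 was below a cells-alone library, and the gene rose by 0.24 ± 0.05 (adjusted p = 0.0047, edgeR).

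PGK1, ENO2 and PFKP had adjusted p close to the threshold in HT29. PGK1 had 1867 to 2135 CPM (median 1959) in SIS ECM and 1573 to 1884 CPM (median 1748) in cells alone, overlapping only at SIS ECM library 2 and cells-alone library 3 (log2 fold change 0.19 ± 0.06, adjusted p = 0.0328, edgeR). ENO2 had 94.8 to 114 CPM (median 109) in SIS ECM and 82.4 to 105 CPM (median 95.3) in cells alone (0.18 ± 0.06, adjusted p = 0.0475). PFKP had 293 to 330 CPM (median 319) in SIS ECM and 239 to 307 CPM (median 283) in cells alone (0.18 ± 0.06, adjusted p = 0.0486, edgeR). Leaving out single libraries gave adjusted p of 0.0236 to 0.106 for PFKP, 0.0154 to 0.108 for ENO2 and 0.0218 to 0.0766 for PGK1, and the calls were lost in 10, 8 and 5 of 12 omissions. PGK1 lost its call without cells-alone libraries 1, 2 or 6 or SIS ECM libraries 3 or 5 (edgeR).

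Glucose transport and the hexokinase step did not pass in HT29. SLC2A1 had 1170 to 1468 CPM (median 1412) in SIS ECM and 984 to 1354 CPM (median 1241) in cells alone (log2 fold change 0.19 ± 0.08, adjusted p = 0.122, edgeR). HK2 had 145 to 197 CPM (median 184) in SIS ECM and 134 to 180 CPM (median 165) in cells alone. Without SIS ECM library 4, the lowest of its group for both, SLC2A1 (0.23, adjusted p = 0.0469) and HK2 (0.21, adjusted p = 0.0488) passed (edgeR). HK1 (-0.05 ± 0.06), ALDOA (0.02 ± 0.07) and LDHA (0.11 ± 0.06) did not pass, with adjusted p of 0.274 to 0.912. Cells-alone libraries 5 and 6 were the lowest of all 12 for SLC2A1 and ALDOA. The mitochondrial share was 5.33 to 6.89% in SIS ECM and 6.15 to 6.80% in cells alone. Smooth-muscle-list genes, of which 2 of 5 passed the count filter, summed to 9.78 to 12.9 CPM in SIS ECM and 13.2 to 15.4 CPM in cells alone, with TAGLN at a mean of 9.63 CPM in SIS ECM and 12.4 CPM in cells alone. ACTA2 had a higher mean with SIS ECM (1.79 CPM, against 1.27 CPM in cells alone), as had MYH11 and CNN1 near 0, while DES had a lower one. Their part in the result was not tested.

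The response of MC38 was lower than that of CT26 for all 10 genes, and the difference passed for 6 of them, against 5.40% of all genes in that direction. MC38 minus CT26 was -1.29 ± 0.29 on the log2 scale for Slc2a1 (adjusted p = 0.00686), -0.69 ± 0.14 for Pfkp (adjusted p = 0.00302) and -0.66 ± 0.14 for Pgk1 (adjusted p = 0.00462, edgeR). It was -1.02 ± 0.27 for Hk2, -0.72 ± 0.18 for Hk1 and -0.72 ± 0.20 for Slc16a3 (adjusted p = 0.0206, 0.0135 and 0.0291, edgeR). Aldoa (-0.91 ± 0.33), Pkm (-0.60 ± 0.24), Ldha (-0.31 ± 0.12) and Eno2 (-0.38 ± 0.33) did not pass, with adjusted p of 0.0894 to 0.51. Slc16a3 lost its call in 8 of 22 omissions of 1 library (adjusted p of 0.0503 to 0.0588): those of CT26 SIS ECM or cells-alone library 1 or 2, MC38 SIS ECM library 1 or 3 and MC38 cells-alone library 1 or 5. With a term for the range in each line, 9 of the 10 passed, all but Eno2, as did 13.8% of all genes in that direction. Without CT26 SIS ECM libraries 1 and 2, 3 of the 10 passed, as did 648 genes in place of 1165.

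Against the mean response of the mouse lines, 0 of the 10 genes passed in HT29 with edgeR, where 5.46% of all genes passed. At an unadjusted p below 0.05, 4 of the 10 did (SLC2A1, HK2, PFKP and SLC16A3), and with RLE size factors 1 passed (SLC16A3, adjusted p = 0.0385). The lowest adjusted p were those of SLC16A3 (0.46 ± 0.14, adjusted p = 0.0532) and PFKP (0.30 ± 0.10, adjusted p = 0.0883, edgeR). That mean joins opposite directions. HT29 minus MC38 passed for SLC2A1 (1.09 ± 0.25), HK2 (0.99 ± 0.23), SLC16A3 (0.81 ± 0.17), PFKP (0.64 ± 0.12) and PGK1 (0.47 ± 0.12), with adjusted p of 0.00121 to 0.0123 and 3.88% of all genes higher. HT29 minus CT26 passed for ENO2 alone (-0.53 ± 0.17, adjusted p = 0.0418), where 6.53% of all genes were lower. These contrasts share libraries with each other and with those above.

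Ratios of isoforms within a library do not depend on scaling. Of 9 ratios with at least 10 counts of the partner in every library, 4 differed by culture after adjustment over the 9 (exact permutation tests over libraries, two-sided). The log2 ratio of SLC16A3 to SLC16A1 in HT29 was 1.22 ± 0.165 in SIS ECM and 0.854 ± 0.223 in cells alone (SD, n = 6 each, adjusted exact p = 0.0357). LDHA to LDHB in HT29 was 2.21 ± 0.0806 in SIS ECM and 2.05 ± 0.101 in cells alone (n = 6 each, adjusted exact p = 0.0357). In MC38 the same ratio was lower with SIS ECM, with 5.02 ± 0.0777 in SIS ECM and 5.18 ± 0.0884 in cells alone (n = 5 each, adjusted exact p = 0.0357). Slc2a1 to Slc2a3 in MC38 was 6.07 ± 0.446 in SIS ECM and 6.64 ± 0.256 in cells alone (n = 5 each, adjusted exact p = 0.0357), with few counts of Slc2a3 behind it. Slc16a3 to Slc16a1 in MC38 was -0.0549 ± 0.435 in SIS ECM and 0.297 ± 0.15 in cells alone (n = 5 each, adjusted exact p = 0.225), and in CT26 -2.55 ± 0.392 in SIS ECM and -2.84 ± 0.266 in cells alone (n = 6 each, adjusted exact p = 0.225). These tests leave out the library number. Taken as same-numbered pairs, the MC38 ratios of Slc16a3 to Slc16a1, Slc2a1 to Slc2a3 and Ldha to Ldhb were each lower with SIS ECM in 4 of 4 pairs (exact sign-flip p = 0.125, the smallest that 4 pairs allow), so neither MC38 call passed in that test.

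The hexokinase ratio did not pass in any line. In HT29 the log2 ratio of HK2 to HK1 was 0.390 ± 0.180 in SIS ECM and 0.190 ± 0.0312 in cells alone (n = 6 each, adjusted exact p = 0.0974). In MC38 it was -1.27 ± 0.644 in SIS ECM and -0.837 ± 0.112 in cells alone (n = 5 each, adjusted exact p = 0.33). Within MC38 libraries 4 to 6 it was -0.854 to -0.762 in SIS ECM and -1.03 to -0.835 in cells alone. Within libraries 1 to 3 it was -1.97 in both SIS ECM libraries and -0.796 to -0.742 in cells alone. In CT26 it was 0.660 ± 0.127 in SIS ECM and 0.692 ± 0.0870 in cells alone (n = 6 each, adjusted exact p = 0.636).

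Among the remaining glycolysis and transport genes, of which 20 were tested in MC38, 8 fell and none rose, with a median log2 fold change of -0.26. In that fit 5.36% of all genes fell. Gpi1, which follows hexokinase, fell by 0.51 ± 0.07 (adjusted p = 0.00174), with 395 ± 26.2 CPM in SIS ECM and 563 ± 45.6 CPM in cells alone. Gapdh fell by 0.42 ± 0.07 (adjusted p = 0.00531), Tpi1 by 0.32 ± 0.06 (adjusted p = 0.0101) and Bsg by 0.65 ± 0.13 (adjusted p = 0.0106, edgeR). Bsg encodes basigin, the chaperone that carries MCT4 to the cell surface. Slc16a1 fell by 0.26 ± 0.06 (adjusted p = 0.022). Gapdh fell within libraries 4 to 6 (-0.48, adjusted p = 0.000419) and within libraries 1 to 3 (-0.39, adjusted p = 3.47e-06, edgeR).

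In CT26 none of 17 such genes passed, and Slc16a1 was -0.19 ± 0.07 (adjusted p = 0.0982, edgeR). With the range term 3 of the 17 rose and 1 fell in CT26, where 1859 of 12269 genes rose and 1686 fell. Within CT26 libraries 1 to 3, 1 of 18 rose and 1 fell, where 1231 of 12405 genes rose and 1253 fell. In HT29, 3 of 18 fell and none rose, where 5.79% of all genes fell: HKDC1, a hexokinase-like gene (-0.48 ± 0.06, adjusted p = 2.49e-05), the aldolase ALDOC (-0.22 ± 0.07, adjusted p = 0.0341) and PFKFB2, which sets fructose 2,6-bisphosphate (-0.20 ± 0.06, adjusted p = 0.0356, edgeR). GAPDH in HT29 was at 0.02 ± 0.07 (adjusted p = 0.903).

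Of genes that decide the fate of pyruvate, none of 9 passed in CT26 and none of 10 in MC38. With the block by library number 1 fell in CT26, as did 975 of 12269 genes in all. With the range term 2 fell in CT26, as did 1686 of 12269 genes. That term gave 1 higher and 2 lower in MC38, where 1608 of 13146 genes rose and 1638 fell. Within libraries 4 to 6, 1 rose in CT26 and 1 fell in MC38, where 11.1% and 8.48% of all genes did. Within libraries 1 to 3 of CT26, 1 rose and 2 fell, where 1231 of 12405 genes rose and 1253 fell. Within libraries 1 to 3 of MC38, 4 rose and 2 fell, where 2573 of 13310 genes rose and 2714 fell. In HT29, 1 of 12 tested rose and 1 fell, where 7.75% of all genes rose and 5.79% fell. PDK1, which holds pyruvate dehydrogenase off, rose by 0.21 ± 0.06 (adjusted p = 0.0185), and MPC2, a subunit of the mitochondrial pyruvate carrier, fell (-0.20 ± 0.06, adjusted p = 0.029, edgeR). The gluconeogenic FBP1 (-0.22 ± 0.05, adjusted p = 0.00494) and PCK1 (-0.84 ± 0.25, adjusted p = 0.0356, edgeR) fell in HT29, 2 of 4 tested, with PCK1 at 0.281 ± 0.0781 CPM in SIS ECM and 0.502 ± 0.154 CPM in cells alone (SD, n = 6 each). In MC38, G6pc3 fell by 0.42 ± 0.07 (adjusted p = 0.00327, edgeR), 1 of 2 tested, where 5.36% of all genes fell.

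Of the glycogen genes, Pgm1 (-0.42 ± 0.08, adjusted p = 0.0064) and Ppp1r3c (-1.27 ± 0.37, adjusted p = 0.0476) fell in MC38, 2 of 7, and none of 6 passed in CT26, where 1 rose with the block by library number. Over all genes, 5.36% fell in MC38 and 10.6% rose in CT26 with that block. With the range term 2 of the 6 rose and 1 fell in CT26, where 1859 of 12269 genes rose and 1686 fell. Within CT26 libraries 4 to 6, 1 rose, and within libraries 1 to 3, 2 rose (11.1% and 9.92% of all genes). In HT29, 2 of 7 tested rose and 1 fell, where 7.75% of all genes rose and 5.79% fell. Of the 7 values 3 were above 0, with a median of -0.03. GBE1 (0.25 ± 0.08, adjusted p = 0.0352) and GYS1 (0.19 ± 0.06, adjusted p = 0.0449), which build glycogen, rose, and PYGB, which breaks it down, fell (-0.16 ± 0.04, adjusted p = 0.0218, edgeR).

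Among 13 regulators of glucose use and HIF, 3 of 12 tested fell in MC38, 1 of 9 rose in CT26, and 3 of 13 rose and 1 fell in HT29, where 5.36% of all genes fell in MC38, 6.15% rose in CT26, and 7.75% rose and 5.79% fell in HT29. With the block by library number, 2 of the 9 rose in CT26, where 10.6% of all genes rose. Without SIS ECM libraries 1 and 2, 0 of the 9 passed in CT26, where 5.22% of all genes rose. Within CT26 libraries 4 to 6, 1 of the 9 rose and 1 fell, where 1369 of 12300 genes rose and 964 fell. Within CT26 libraries 1 to 3, 2 rose, where 9.92% of all genes rose. The highest log2 fold change of the 9 was 0.88 in libraries 4 to 6 and 0.95 in libraries 1 to 3. The prolyl hydroxylases EGLN1 and EGLN3 mark HIF for decay and are themselves induced by it. Egln1 (-0.59 ± 0.10, adjusted p = 0.00445), Egln3 (-1.02 ± 0.21, adjusted p = 0.0105) and Vhl (-0.30 ± 0.07, adjusted p = 0.0165) fell in MC38. In HT29, EGLN1 (0.27 ± 0.05, adjusted p = 0.000862) and EGLN3 (0.28 ± 0.07, adjusted p = 0.00994) rose and EPAS1 fell (-0.19 ± 0.06, adjusted p = 0.0393, edgeR). TXNIP, which restrains glucose uptake, rose in CT26 (0.93 ± 0.21, adjusted p = 0.0121) and in HT29 (0.28 ± 0.05, adjusted p = 0.00167). Its call in CT26 was lost without SIS ECM libraries 1 and 2. HIF1A did not pass in any line.

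HIF targets outside glycolysis fell in MC38 for 4 of 9 tested, where 5.36% of all genes fell: Ndrg1 (-0.77 ± 0.13, adjusted p = 0.0045), Ddit4 (-0.84 ± 0.17, adjusted p = 0.0121), P4ha1 (-0.33 ± 0.07, adjusted p = 0.013) and Ankrd37 (-1.22 ± 0.34, adjusted p = 0.0432, edgeR). In CT26, 2 of 9 rose, where 6.15% of all genes rose: Ankrd37 (0.42 ± 0.06, adjusted p = 0.000307) and Vegfa (0.45 ± 0.10, adjusted p = 0.01). The CT26 count was 8 of 9 with the block by library number and with the range term (10.6% and 15.2% of all genes). It was 6 of 9 in libraries 4 to 6, 8 of 9 in libraries 1 to 3, and 3 of 9 without SIS ECM libraries 1 and 2 (11.1%, 9.92% and 5.22%). In MC38, 6 of 9 fell with the block and with the range term (5.23% and 12.5% of all genes). Within MC38 libraries 4 to 6, 4 of 9 fell, and within libraries 1 to 3, 9 of 10 (8.48% and 20.4%). In HT29, 2 of 10 rose, where 7.75% of all genes rose: BNIP3L (0.31 ± 0.06, adjusted p = 0.00201) and P4HA1 (0.21 ± 0.06, adjusted p = 0.0313, edgeR). Over the tested list the median log2 fold change was -0.33 in MC38, 0.42 in CT26 and 0.10 in HT29.

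The genes most like the mean standardised profile of the 10 across libraries were named by correlation. In CT26 they were Ftl1, Slc35e4, Sdc4, Ak1 and Lonp1 (Pearson's r of 0.969 to 0.975 over 12 libraries, among 7110 genes). In MC38 they were Heatr5b, Stbd1, Nomo1, 2900026A02Rik and Sept5 (0.974 to 0.976 over 10 libraries, 7870 genes), and in HT29 LIMCH1, ZNRF1, CFB and CLIC3 (0.943 to 0.962 over 12 libraries, 8616 genes). Each of the 10 is part of that mean, which raises its own r. Pfkp was close to the profile in every line (r of 0.933 in MC38, 0.959 in CT26, 0.982 in HT29), and so was Slc2a1 (0.943, 0.955 and 0.912). Eno2 had an r of -0.20 in MC38. These libraries share number range and culture, which enter each r.

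The authors' deposited table, from their own model, called 5 of the 10 genes lower in MC38 (Slc2a1, Hk1, Hk2, Pfkp and Slc16a3), 1 higher in CT26 (Eno2) and 6 higher in HT29 (PFKP, PGK1, ENO2, PKM, LDHA and SLC16A3) at an adjusted p below 0.05. The share of all genes called by that model is not given here, so these counts cannot be set against it. LDHA in HT29 had a log2 fold change of 0.18 there (the authors' deposited table, adjusted p = 0.0034), against 0.11 in edgeR. In the authors' deposited table of Hallmark sets, the glycolysis set had a normalised enrichment score of -2.22 in MC38 (adjusted p = 0.00113), 1.28 in CT26 (adjusted p = 0.105) and 1.20 in HT29 (adjusted p = 0.148).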

How the data were processed

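PolyA RNA from 34 libraries was sequenced by the authors as read pairs with a stranded kit, per the labels' protocols. Per the submitters' processing notes, cutadapt 1.18, STAR 2.7.0f, RSEM 1.3.1 and limma were used with mm10 and hg38; whether counting used strand is not stated in these sources. Expected counts were deposited per gene and rounded here to whole numbers. The authors' deposited comparison tables hold log2 fold changes, p-values and a t score for each gene, and an enrichment score for each Hallmark set; 34 per-sample columns of those tables were not used.

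Each line was tested with edgeR 4.0.16 (R 4.3.3): quasi-likelihood F test, two-sided, TMM factors, filterByExpr with a minimum count of 10, Benjamini-Hochberg adjustment over all genes tested. CPM are TMM-scaled. Log2 fold changes are SIS ECM over cells alone, ± SE. Differences between lines or number ranges were interaction contrasts. HT29 was joined to mouse by the 16710 symbols that match when case is ignored. DESeq2 1.42.0 and limma voom 3.58.1 were alternatives. Ratios were tested with scipy 1.17.1 by exact permutation. The test scripts were tested on simulated data. Mouse lengths and coordinates are from GENCODE annotation of mm10; human ones were not used here.

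Same-numbered libraries of both cultures deviated together in the mouse lines (r of 0.252 to 0.562 in 6 CT26 pairs and 0.195 to 0.378 in 4 MC38 pairs). The labels do not say that libraries are separate cultures, so p-values then cover only library-to-library spread, possibly technical. No 2 libraries of a group agreed within sampling noise. The 10 genes and all lists were chosen with earlier results of these data known; all 10 are named in every comparison, with up to 4 changed genes of each list, those with the smallest adjusted p, and the isoforms SLC2A3, LDHB and SLC16A1. Pseudogene copies of abundant glycolytic genes may take or give reads. Markers were summed for epithelial, leukocyte, endothelial, fibroblast and smooth muscle lists; leukocyte genes summed to 1.11 to 10.2 CPM in the mouse lines and, almost wholly from LYZ, to 1720 to 2090 CPM in HT29, and smooth muscle genes to at most 15.4 CPM. Of the 5 genes per line most like the mean profile, 1 in HT29 is not reported here.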

Additional observations from a re-analysis of the deposited data

Results flagged for a closer look

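Of 60 groups of libraries tested for a single value far from the others, 3 held one, and chance gives about 1 in 20. In CT26 cells alone, library 3 was the highest for Slc2a1 (107 CPM, next 85.9 CPM; gap over range 0.805) and for Hk1 (70.5 CPM, next 56.6 CPM; gap over range 0.706). In MC38 cells alone, library 4 was the lowest for Pkm (1925 CPM, next 2181 CPM; gap over range 0.757).

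The response to SIS ECM differed between lines, by edgeR tests of the difference itself. MC38 minus CT26 was -1.29 for Slc2a1, -1.02 for Hk2, -0.72 for Hk1, -0.72 for Slc16a3, -0.69 for Pfkp and -0.66 for Pgk1 on the log2 scale. HT29 minus MC38 was 1.09 for SLC2A1, 0.99 for HK2, 0.81 for SLC16A3, 0.64 for PFKP and 0.47 for PGK1. HT29 minus CT26 was -0.53 for ENO2.

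It also differed between number ranges. Libraries 4 to 6 minus libraries 1 to 3 gave 1.79 for Hk2, 1.27 for Slc2a1, 0.57 for Slc16a3, 0.53 for Pfkp and 0.45 for Hk1 in MC38, and -0.84 for Eno2 in CT26.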

How the results depend on the processing

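Over the alternatives, 1108 of 1240 values of single genes kept their direction and, where tested, their side of the threshold, 61 lost a call, 51 gained one and 20 changed sign. The cause was not tested for any of these changes. The 1240 include differences in mean log2 CPM without TMM factors, which have no p-value. Those were counted as kept where they moved by less than the mean SD of the groups.

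In CT26, the number of the 10 genes that rose was 1 with no filter on low counts, 5 with the number range term, 6 in libraries 1 to 3 only and 1 without SIS ECM libraries 1 and 2. The genes called in all were 2281 with the replicate block, 3545 with the range term, 2484 in libraries 1 to 3 and 2333 in libraries 4 to 6. In libraries 4 to 6 only, Slc2a1 was -0.050, Pkm -0.075 and Slc16a3 -0.17, and without SIS ECM libraries 1 and 2, Pkm was -0.15 and Slc16a3 -0.089. For the range difference in CT26, no filter gave 696 genes and 6 of the 10 lower. In MC38 the range term gave 3246 genes, libraries 1 to 3 gave 5287 and libraries 4 to 6 gave 2318, and Eno2 in libraries 1 to 3 was -0.056. In HT29, 2 of the 10 rose with no filter. For MC38 minus CT26, the range term gave 3740 genes, and leaving out CT26 SIS ECM libraries 1 and 2 gave 648 genes and 3 of the 10 lower. With RLE size factors, 1 of the 10 was higher in HT29 minus the mouse mean, and in HT29 minus CT26 HK2 was 0.00063 and PKM 0.020. With no filter PKM was 0.013 there and 0 of the 10 were lower. Between ranges, no filter gave 1 of the 10 higher in CT26 and 3 in MC38.

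Leaving out 1 library at a time gave 792 to 1364 genes and 1 to 2 of the 10 higher in CT26, 626 to 1948 genes and 6 to 8 lower in MC38, and 1445 to 2464 genes and 2 to 7 higher in HT29. It gave 813 to 1727 genes and 5 to 7 lower for MC38 minus CT26. For the range difference it gave 0 to 3101 genes and 0 to 8 lower in CT26, and 1453 to 3056 genes in MC38, where Aldoa was -0.097 to 0.093, Pkm -0.13 to 0.11 and Ldha -0.11 to 0.041. ALDOA in HT29 was -0.031 to 0.044, and the log2 ratio of Hk2 to Hk1 differed between cultures by -0.065 to 0.0079 in CT26 and by 0.168 to 0.245 in HT29.

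In HT29, same-numbered libraries did not deviate together (r of -0.118 to 0.0587); with the replicate block ENO2 lost its call (adjusted p = 0.0543, edgeR). In the mouse lines the block changed no call of the 10 genes but those of Aldoa in CT26 and Hk2 in MC38. With the replicate block, chosen after seeing the data for the ratios, the log2 ratios in MC38 differed between cultures by -0.697 for Slc2a1 to Slc2a3 and by -0.133 for Ldha to Ldhb, and neither passed, since 4 pairs cannot reach the threshold. Depth limited Eno2 in MC38 and the ratio to Slc2a3, which rest on few counts.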
